A study of Mus musculus with 18 samples.

Results

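Of the transcripts measured in cultured mouse aorta, 8 genes of secreted inflammatory and growth-factor proteins are described here: Il1b, Tnf and Il1rn of the early inflammatory response, Il6, Il11 and Lif of the interleukin-6 family, and the colony-stimulating factors Csf1 and Csf3. They were taken by name from the probe annotation of the array, using every probe set that carried 1 of these symbols alone, which gave 14 probe sets for 8 of the 12393 genes on the array. RNA came from aortas of male C57Bl/6 mice that had received spironolactone, which blocks the mineralocorticoid receptor, from a pellet under the skin at 20 mg/kg/day for 5 days. This pretreatment is shared by all 6 groups, so no group shows untreated aorta. The excised vessels were then held in organ culture in DMEM for 2, 4 or 8 h with vehicle or with 100 nM aldosterone, the natural ligand of that receptor, and each group held 3 samples of 3 pooled aortas.

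Cytokines of this kind act at low concentration on neighbouring cells. Interleukin-1 beta and tumour necrosis factor are early signals, made mainly by macrophages and other activated cells of the vessel wall, and they switch on NF-kB and AP-1 transcription factors in smooth muscle cells, fibroblasts and endothelium. Those cells in turn make interleukin-6, interleukin-11 and leukaemia inhibitory factor, which all signal through the shared receptor chain encoded by Il6st and the JAK-STAT pathway, as well as the growth factors for macrophages (Csf1) and granulocytes (Csf3). Corticosteroids acting on the glucocorticoid receptor are known to lower many of these transcripts, partly through mRNA decay.

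Values are log2 expression estimates from the deposited GCRMA table, in which a difference of 1 is a doubling. A gene was tested where 3 or more of the 18 samples exceeded 4, and its probe set with the highest mean stood for it. Of the 8 genes, 7 passed and were tested among 7092 genes with limma; Il1rn did not pass. Il1b passed with values above 4 in 9 of 9 vehicle samples and 3 of 9 aldosterone samples, and Tnf passed with 3 and 2. A higher level of 1 gene than another is not read as more RNA, because probe sets differ in brightness. For the same reason, sums of marker signal weigh the brightest probe sets most. In the text, differences are log2 values ± SE from 1 fit of all 18 samples, and adjusted p-values are limma's after Benjamini-Hochberg adjustment over all 7092 genes.

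Of the cell type markers, 6 of 6 smooth muscle, 6 of 6 endothelial, 6 of 6 fibroblast and 8 of 8 macrophage markers passed the filter. Over the array 7092 of 12393 genes passed it. Some markers passed narrowly: group means of the macrophage marker Cd68 ran from 3.28 to 3.94. For adipocytes 3 of 5 markers passed, and Adipoq and Ucp1 were at 10.83 and 10.36 in vehicle at 2 h. Of the neutrophil, lymphocyte and mast cell markers 2 of 6, 1 of 6 and 1 of 5 passed. Of the adipocyte, neutrophil, lymphocyte and mast cell markers 4, 4, 5 and 5 had a probe set. The lymphocyte markers Cd3e, Cd3g, Cd2 and Cd79a and the mast cell markers Cpa3, Mcpt4, Tpsb2 and Ms4a2 were never above 4. In this bulk tissue, fewer cells of a type and less RNA per cell cannot be told apart. Of 5 corticosteroid-induced genes checked for the hormone, 0 passed against vehicle at 2 h (1 at an unadjusted p under 0.05). At both 4 and 8 h 4 were higher than in vehicle: Fkbp5, Per1, Sgk1 and Zbtb16. Of all genes 0.226% and 0.860% were higher at these times. From 2 to 4 h all 5 fell in vehicle, and with aldosterone 2 rose and 3 fell. Vehicle 2 h replicate 1 stood apart from the other 17 samples, with a median of 4.42 where they lay between 4.01 and 4.09, and the 2 h differences and vehicle steps from 2 to 4 h are also given without it. The log2 excess of 3' over 5' signal, a measure of RNA integrity, was 0.36 to 0.79 for the Gapdh control. For the beta-actin control it was larger, 1.51 to 2.13.

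Time in culture moved Il6, Il11, Lif and Csf1 upwards by 2.25-fold to 9.86-fold between 2 and 4 h in vehicle alone. In the same step 14.6% of all genes rose and 25.6% fell (median step of all genes -0.13). Among markers, 4 of 6 endothelial ones fell (median of the list -1.05), as did 3 of 3 tested adipocyte markers (-1.41) and 4 of 8 macrophage markers (-0.71). A fall was also called for 2 of 6 fibroblast markers (-0.55) and 1 of 6 smooth muscle markers (-0.35), near the share over all genes. The part of these cells in the rises was not tested. Aldosterone was accompanied by lower Il1b and Il11 averaged over the times and by higher Csf3 at 8 h, while no difference of Il6 or Lif from vehicle passed the threshold at any time. Of the 7 genes tested, 0 passed at 2 h, 0 at 4 h, 2 at 8 h and 2 in the average over times. At an unadjusted p under 0.05 the counts were 5, 2, 3 and 5, where 11%, 3.76%, 6.26% and 8.43% of all genes had one. Over all genes the share past the threshold was 0.0705% at 2 h (0.0423% higher and 0.0282% lower), 0.240% at 4 h (0.226% and 0.0141%), 1.0% at 8 h (0.860% and 0.141%) and 1.10% in the average (0.860% and 0.240%). The median difference of the 7 genes was -0.62, -0.21 and -0.12 at 2, 4 and 8 h, beside -0.07, 0.01 and 0.01 over all genes. The 2 h median was -0.37 without vehicle 2 h replicate 1 (0.04 over all genes) and -0.94 without vehicle 2 h replicate 3. Leaving out 1 sample at a time, the 4 h median ran from -0.38 (without aldosterone replicate 1) to -0.13 (without aldosterone replicate 3) and the 8 h median from -0.17 to -0.04 (without aldosterone replicates 1 and 3).

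**Figure D1:**
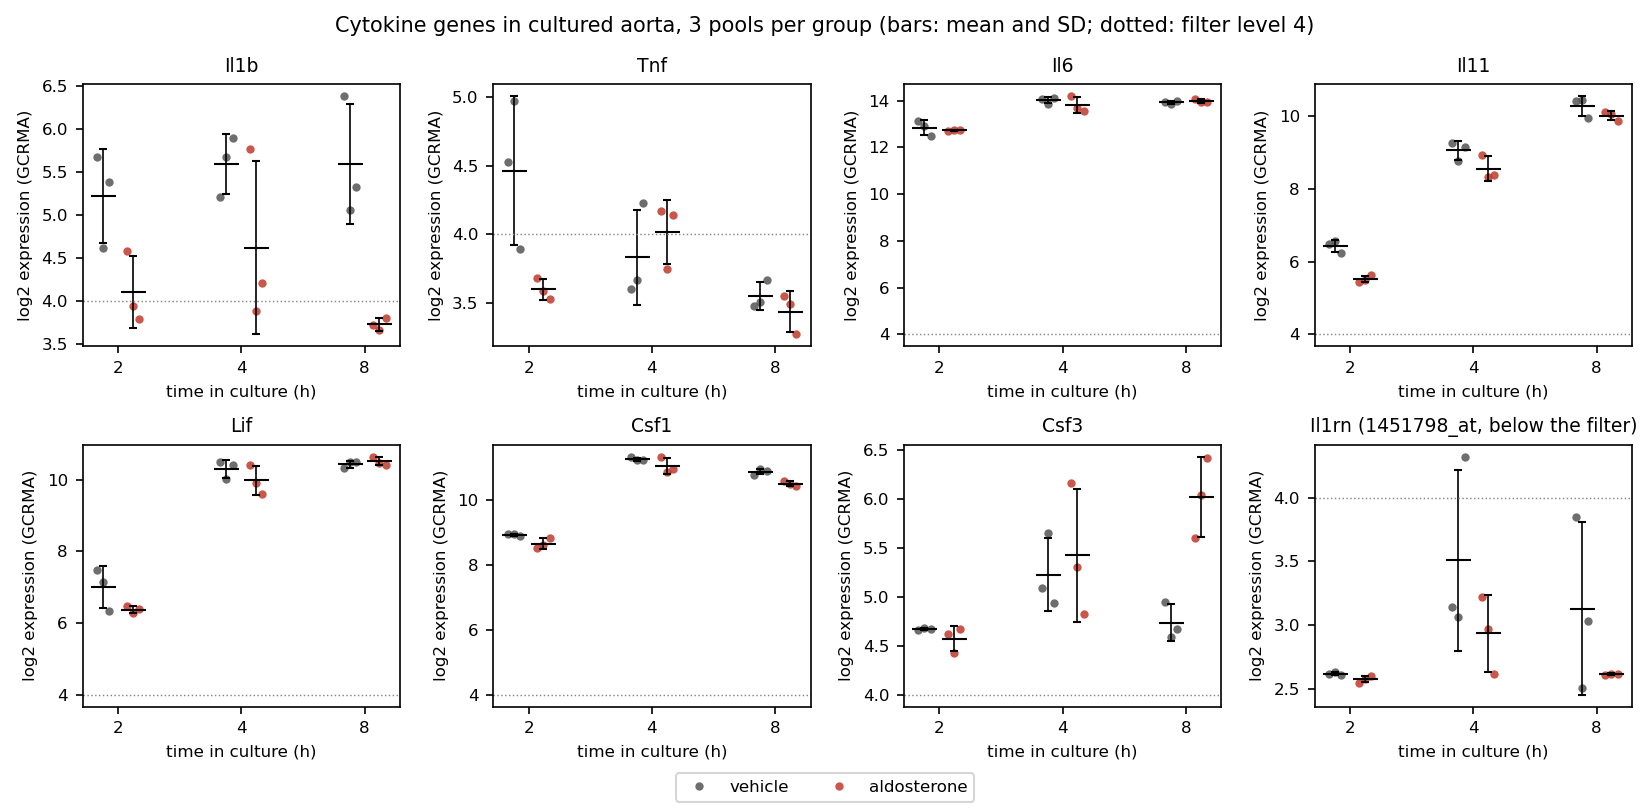
Log2 expression (vertical axis, its range set per panel) of 7 tested genes and the most variable Il1rn probe set by hours in culture (horizontal axis), in 3 vehicle (grey) and 3 aldosterone (red) samples per time, with the mean and SD as black bars and the filter level of 4 dotted. Il11, Lif and Csf1 climb between 2 and 4 h in both arms, the 3 aldosterone samples of Il1b at 8 h lie between 3.66 and 3.80, and those of Csf3 lie between 5.60 and 6.42.

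Il1b encodes interleukin-1 beta, made as a precursor that caspase-1 cleaves. At 8 h its vehicle samples were 6.38, 5.06 and 5.33, and its aldosterone samples were 3.72, 3.66 and 3.80. The groups did not overlap, and every aldosterone sample lay under the level of 4. The vehicle mean of 5.59 lay 3.01-fold above that level. Fitted to the values as they stand, the difference was -1.86 ± 0.42 (adjusted p = 0.0387). With values under 4 set to 4 it was -1.59 and did not pass (adjusted p = 0.0877). At 2 h the vehicle samples were 5.68, 4.62 and 5.38 and the aldosterone samples 4.58, 3.94 and 3.79. They were separated only by the gap from 4.58 to 4.62, and the difference of -1.13 ± 0.42 did not pass (adjusted p = 0.343; -0.90 and 0.382 without vehicle 2 h replicate 1). At 4 h the vehicle samples were 5.21, 5.67 and 5.90 and the aldosterone samples 5.77, 3.88 and 4.21. Here aldosterone replicate 1 lay inside the vehicle range while the other two lay below it, and the difference was -0.98 ± 0.42 (adjusted p = 1). Averaged over the times, Il1b fell with aldosterone by 1.32 ± 0.24 on the log2 scale (adjusted p = 0.00748), or by 1.19 with values under 4 set to 4. It was lower in mean at each of the 3 times, and a difference of the effect between times was not found (F test over the 3 times, adjusted p = 0.969).

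The 8 h call of Il1b was lost in 11 of 26 alternative settings, with adjusted p from 0.00677 to 0.204 over them, and the averaged call was kept in all 26. It was lost without vehicle 8 h replicate 1 (-1.47, adjusted p = 0.204), without vehicle 8 h replicate 3 (-1.99, adjusted p = 0.0762) and without aldosterone 8 h replicates 1, 2 and 3 (-1.86, -1.83 and -1.90, with adjusted p = 0.141, 0.167 and 0.119). Leaving out some samples of other times, with the difference itself still at -1.86, also ended it: vehicle 2 h replicate 3, aldosterone 2 h replicates 2 and 3 and vehicle 4 h replicate 2 (adjusted p = 0.0512, 0.0565, 0.0543 and 0.0564). With values under 4 set to 4 the difference was -1.59 (adjusted p = 0.0877), and with no filter on low values the adjusted p was 0.122.

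Markers of cells that make interleukin-1 beta were read beside it. The summed linear signal of the 8 macrophage markers ran from 692 to 1072 in vehicle and from 844 to 963 with aldosterone at 8 h, which overlapped. Cd14 alone made up 60.2% to 67.3% of that sum in the 8 h samples, and the other 7 markers summed to 252 to 357 in vehicle and 277 to 383 with aldosterone, a sum added after the data were seen. Of these markers 1 was higher with aldosterone than with vehicle at 8 h and 0 were lower. It was Mrc1, the macrophage mannose receptor, at 1.27 ± 0.28 (adjusted p = 0.0335). The 2 tested neutrophil markers, S100a8 and S100a9, had a summed signal of 58 to 109 in vehicle and 23 to 30 with aldosterone at 2 h, and of 24 to 25 and 20 to 24 at 8 h. S100a9 differed by -1.64 ± 0.49 at 2 h without passing (adjusted p = 0.233). Of the 3 tested adipocyte markers 0 passed with aldosterone at 8 h (1 at an unadjusted p under 0.05, median 0.66). Ucp1, the uncoupling protein of brown fat, was at 1.02 ± 0.48 (adjusted p = 0.791). The other markers went opposite ways, with means in vehicle and aldosterone of 5.39 and 6.05 for Cidec and 9.08 and 8.96 for Adipoq. The neutrophil markers Cxcr2 and Mmp8 were never above 4, and the part of any of these cells in the values of Il1b and Tnf was not tested. Nlrp3 and Casp1, which encode parts of the inflammasome that matures interleukin-1 beta, differed by -0.26 ± 0.16 and -0.15 ± 0.12 in the average without passing (adjusted p = 0.709 and 0.789).

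Tnf encodes tumour necrosis factor, a membrane protein released by the protease Adam17. It was dim throughout, at 3.27 to 4.97 over the 18 samples. At 2 h its vehicle samples were 4.53, 4.97 and 3.89 and its aldosterone samples 3.68, 3.59 and 3.53. The aldosterone samples were all below the vehicle samples and under 4, but the difference did not pass (-0.86 ± 0.23, adjusted p = 0.203). Without vehicle 2 h replicate 3, the lowest of its group, it was -1.15 with an adjusted p of 0.023, and without vehicle 2 h replicate 1 it was -0.83 with an adjusted p of 0.143, in a range of 0.023 to 0.417 over 26 settings. At 4 h the vehicle samples were 3.60, 3.67 and 4.23 and the aldosterone samples 4.17, 3.75 and 4.14, which overlapped. At 8 h all 6 samples lay under 4, from 3.27 to 3.67. In vehicle culture Tnf fell by 0.64 ± 0.23 from 2 to 4 h (adjusted p = 0.0333). That call was lost in 8 of 26 settings. These were without vehicle 2 h replicate 1 or 2 (-0.60 and -0.38, adjusted p = 0.0699 and 0.175), without vehicle 4 h replicate 1 or 2 (-0.52 and -0.55, adjusted p = 0.131 and 0.108), with each array centred on its median (-0.49, adjusted p = 0.124), with quantile normalization again (-0.53, adjusted p = 0.0766), with array weights (-0.51, adjusted p = 0.0685) and with no filter (adjusted p = 0.0565). With aldosterone the same step was 0.42 ± 0.23 (adjusted p = 0.156).

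Il1rn encodes the interleukin-1 receptor antagonist, a secreted protein that occupies the receptor without signalling. None of its 3 probe sets passed the filter. Probe set 1423017_a_at ran from 2.82 to 3.36 and 1425663_at from 3.02 to 3.28 over the 18 samples. The third, 1451798_at, was at 3.14, 3.06 and 4.32 in vehicle at 4 h and at 3.22, 2.97 and 2.62 with aldosterone. Vehicle 4 h replicate 3 was the only one of the 18 samples above 4, and no test was made.

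Il6 encodes interleukin-6, an inducer of the acute-phase response. Its probe set gave high values, where the highest value of any probe set in the table was 15.66, and whether its signal was near saturation was not tested. Vehicle samples were 13.12, 12.93 and 12.48 at 2 h, 14.06, 13.86 and 14.11 at 4 h, and 13.96, 13.86 and 13.98 at 8 h. Aldosterone samples were 12.72, 12.76 and 12.74 at 2 h, 14.18, 13.70 and 13.56 at 4 h, and 14.07, 13.94 and 13.93 at 8 h. The arms overlapped at each time and all 2 h samples lay below all later ones. Il6 rose 2.25-fold from 2 to 4 h in vehicle (1.17 ± 0.15, adjusted p = 1.77e-05) and 2.11-fold with aldosterone (1.08 ± 0.15, adjusted p = 4.16e-05). Without vehicle 2 h replicate 1 the vehicle rise was 1.30. From 4 to 8 h it moved by -0.08 ± 0.15 and 0.17 ± 0.15, neither past the threshold (adjusted p = 0.739 and 0.414). The hormone difference of Il6 was -0.10, -0.20 and 0.05 at 2, 4 and 8 h, each ± 0.15, and none passed (adjusted p = 0.826, 1 and 1). Without vehicle 2 h replicate 1 the 2 h value was 0.03, with the sign turned.

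Il11 encodes interleukin-11, a cytokine of fibroblasts and smooth muscle cells known for driving fibroblast activation. Vehicle samples were 6.48, 6.56 and 6.25 at 2 h, 9.28, 8.77 and 9.16 at 4 h, and 10.42, 10.45 and 9.96 at 8 h. Aldosterone samples were 5.45, 5.50 and 5.63 at 2 h, 8.95, 8.33 and 8.40 at 4 h, and 10.11, 10.06 and 9.88 at 8 h. The order of the group means followed time in both arms, without overlap between times. At 2 h the aldosterone samples lay entirely below the vehicle samples, while at 4 and 8 h the arms overlapped. Il11 rose 6.25-fold in vehicle (2.64 ± 0.18, adjusted p = 1.16e-08) and 8.19-fold with aldosterone (3.03 ± 0.18, adjusted p = 2.87e-09) from 2 to 4 h, and by 2.67 on the log2 scale in vehicle without vehicle 2 h replicate 1. It rose again from 4 to 8 h, 2.31-fold in vehicle (1.21 ± 0.18, adjusted p = 6.11e-05) and 2.74-fold with aldosterone (1.46 ± 0.18, adjusted p = 9.4e-06).

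The hormone difference of Il11 was -0.90 ± 0.18 at 2 h, -0.51 ± 0.18 at 4 h and -0.26 ± 0.18 at 8 h, and none of the 3 passed on its own (adjusted p = 0.0742, 0.88 and 1). Without vehicle 2 h replicate 1 the 2 h value was -0.88 (adjusted p = 0.0575). Averaged over the times, Il11 fell with aldosterone, to 0.679 times the vehicle value (-0.56 ± 0.10, adjusted p = 0.00833), a call kept in all 27 alternative settings with values from -0.62 to -0.52. At 2 h it passed in 5 of 27 settings, with adjusted p from 0.0246 to 0.314 over all of them, and among the left-out samples these were vehicle 2 h replicate 3 (-0.99, adjusted p = 0.0464), aldosterone 4 h replicate 1 (adjusted p = 0.038) and vehicle 8 h replicate 3 (adjusted p = 0.0493). The means shrank in difference with time, but the F test of the effect between times did not pass (adjusted p = 0.884).

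Lif encodes leukaemia inhibitory factor, which acts through Lifr and Il6st. Vehicle samples were 7.49, 7.15 and 6.35 at 2 h, 10.49, 10.01 and 10.40 at 4 h, and 10.32, 10.50 and 10.48 at 8 h. Aldosterone samples were 6.47, 6.27 and 6.39 at 2 h, 10.42, 9.91 and 9.60 at 4 h, and 10.64, 10.47 and 10.42 at 8 h. The 4 and 8 h samples overlapped in vehicle and met at 10.42 with aldosterone, and all of them lay above the 2 h samples. Between 2 and 4 h Lif rose 9.86-fold in vehicle (3.30 ± 0.23, adjusted p = 2.01e-08) and 12.1-fold with aldosterone (3.60 ± 0.23, adjusted p = 6.89e-09). Without vehicle 2 h replicate 1, the highest 2 h sample, the vehicle rise was 3.55. The hormone difference was -0.62 ± 0.23 at 2 h (-0.37 without vehicle 2 h replicate 1 and -0.94 without vehicle 2 h replicate 3), -0.32 ± 0.23 at 4 h and 0.07 ± 0.23 at 8 h, and none passed (adjusted p = 0.346, 1 and 1). A second probe set, 1450160_at, was never above 4.

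Csf1 encodes macrophage colony-stimulating factor, the survival factor of macrophages that carry its receptor Csf1r. In the probe set that stood for it, 1460220_a_at, vehicle samples were 8.94, 8.94 and 8.88 at 2 h, 11.31, 11.24 and 11.22 at 4 h, and 10.78, 10.94 and 10.88 at 8 h. Aldosterone samples were 8.51, 8.61 and 8.83 at 2 h, 11.33, 10.87 and 10.94 at 4 h, and 10.59, 10.48 and 10.44 at 8 h. The aldosterone samples lay below the vehicle samples at 2 and 8 h and overlapped them at 4 h. Csf1 rose 5.06-fold from 2 to 4 h in vehicle (2.34 ± 0.12, adjusted p = 3.77e-10) and 5.26-fold with aldosterone (2.40 ± 0.12, adjusted p = 5.6e-10). The vehicle rise was 2.35 without vehicle 2 h replicate 1. It then fell from 4 to 8 h by 0.39 ± 0.12 in vehicle (adjusted p = 0.0139) and by 0.54 ± 0.12 with aldosterone (adjusted p = 0.00159). The vehicle fall was no longer past the threshold without vehicle 4 h replicate 1 (-0.37, adjusted p = 0.0515) or vehicle 8 h replicate 1 (-0.35, adjusted p = 0.0573).

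The hormone difference of Csf1 was -0.27, -0.21 and -0.36 at 2, 4 and 8 h, each ± 0.12 and none past the threshold (adjusted p = 0.396, 1 and 0.321). The 2 h value was -0.26 without vehicle 2 h replicate 1. Its average was -0.28 ± 0.07, just outside the threshold (adjusted p = 0.0555). It passed in 6 of 27 settings, among them without vehicle 2 h replicate 1, aldosterone 2 h replicate 3 and aldosterone 4 h replicate 1 (adjusted p = 0.0344, 0.0384 and 0.00878). Tested on their own, the 4 Csf1 probe sets did not read alike. The average was -0.35 ± 0.18 for 1425154_a_at, 0.09 ± 0.11 for 1425155_x_at, -0.33 ± 0.11 for 1448914_a_at and -0.28 ± 0.07 for 1460220_a_at, and none passed (adjusted p = 0.626, 0.88, 0.318 and 0.0563). The vehicle rise from 2 to 4 h passed in all 4, at 1.54, 1.49, 2.53 and 2.34. From 4 to 8 h in vehicle 1425155_x_at rose by 0.60 ± 0.19 (adjusted p = 0.0221) where 1460220_a_at fell. The other two, 1425154_a_at at 0.38 ± 0.31 and 1448914_a_at at -0.19 ± 0.20, did not pass (adjusted p = 0.369 and 0.481). With aldosterone 1448914_a_at was at -0.35 ± 0.20 in that step, with all 8 h samples below the 4 h samples, and 1425155_x_at at 0.41 ± 0.19, with all of them above (adjusted p = 0.184 and 0.107). The probe sets therefore differed in the direction of the late step.

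**Figure D2:**
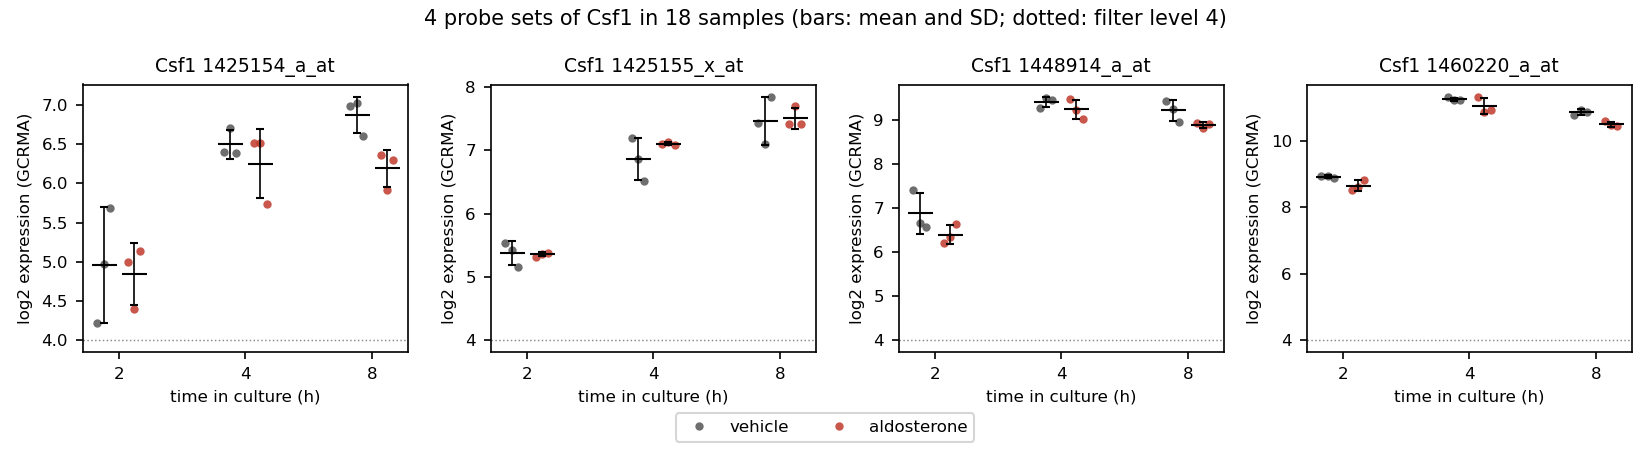
Log2 expression (vertical axes, each with its own range) of the 4 Csf1 probe sets by hours in culture in 3 vehicle (grey) and 3 aldosterone (red) samples per time, with mean and SD as black bars. All 4 climb between 2 and 4 h, and from 4 to 8 h 1425155_x_at and 1460220_a_at go opposite ways in vehicle.

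Csf3 encodes granulocyte colony-stimulating factor, which drives neutrophil production. Vehicle samples were 4.66, 4.68 and 4.67 at 2 h, 5.09, 5.65 and 4.94 at 4 h, and 4.95, 4.59 and 4.67 at 8 h. Aldosterone samples were 4.62, 4.43 and 4.67 at 2 h, 6.16, 5.30 and 4.82 at 4 h, and 5.60, 6.04 and 6.42 at 8 h. Only at 8 h did the arms not overlap, and there the aldosterone samples were all higher. Csf3 rose 2.43-fold with aldosterone at 8 h (1.28 ± 0.28, adjusted p = 0.0288), against differences of -0.10 ± 0.28 at 2 h and 0.20 ± 0.28 at 4 h (adjusted p = 0.925 and 1; -0.10 at 2 h without vehicle 2 h replicate 1). The effect at 8 h exceeded that at 4 h by 1.09, yet the F test over the 3 times did not pass (adjusted p = 0.506, unadjusted p = 0.00659). Its 8 h call was lost in 7 of 27 settings, with adjusted p from 0.00376 to 0.193 over them and values from 1.08 to 1.49. These were without vehicle 8 h replicates 1, 2 and 3 (1.39, 1.21 and 1.25, with adjusted p = 0.0509, 0.145 and 0.113), without aldosterone 8 h replicates 2 and 3 (1.27 and 1.08, adjusted p = 0.125 and 0.193), with no filter (adjusted p = 0.081) and with the replicate number as a block (adjusted p = 0.0504). A filter at 6, which kept the call, was passed only through aldosterone samples (6.16 at 4 h, 6.04 and 6.42 at 8 h). That setting therefore adds no support.

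With aldosterone, Csf3 also rose from 2 to 4 h by 0.85 ± 0.28 (adjusted p = 0.0226), a call that ended without aldosterone 4 h replicate 1 (0.49, adjusted p = 0.148) or aldosterone 2 h replicate 2 (0.78, adjusted p = 0.0761). In vehicle that step was 0.56 ± 0.28 and did not pass (adjusted p = 0.122). Csf2, which encodes the granulocyte-macrophage factor and is not among the 8 genes, rose in vehicle from 2 to 4 h (3.60 ± 0.34, adjusted p = 6.02e-07). Its vehicle samples at 2 h were all under 4, from 2.99 to 3.65, and their mean at 4 h was 6.99. Its hormone difference at 8 h was 0.61 ± 0.34 (adjusted p = 0.937).

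**Figure D3:**
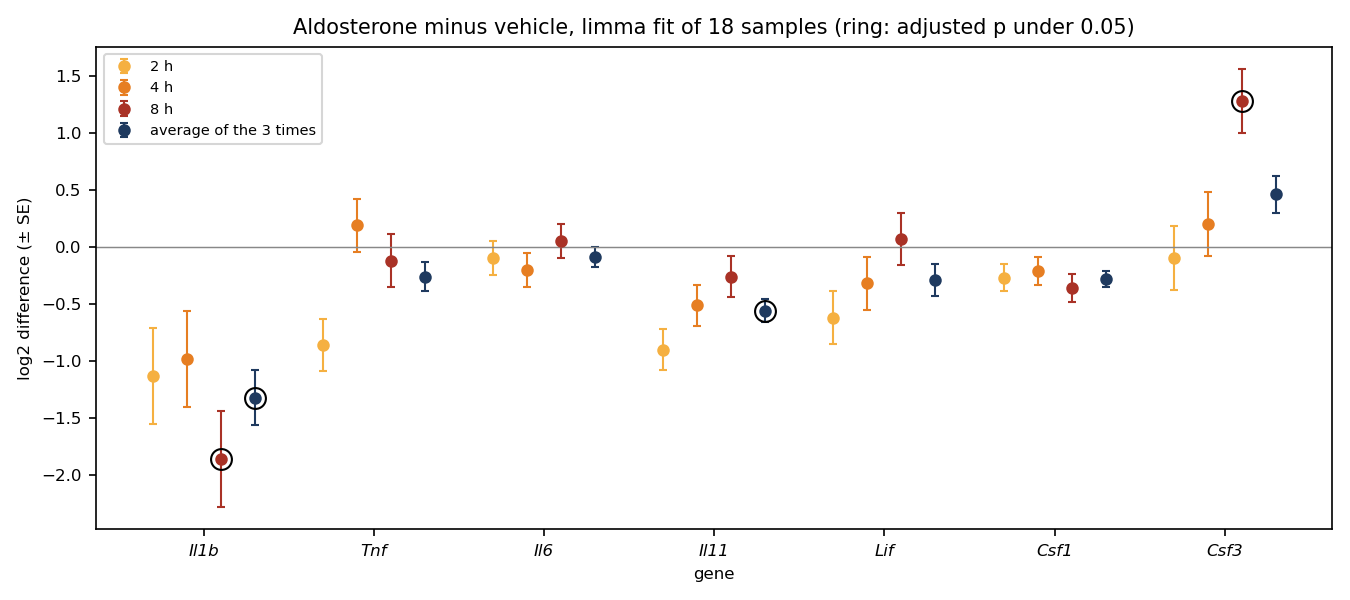
Difference of aldosterone from vehicle in log2 units (vertical axis, ± SE of the fit to 18 samples) for 7 genes (horizontal axis) at 2, 4 and 8 h and averaged over the 3 times, with a ring where the adjusted p was under 0.05. Rings mark Il1b at 8 h (-1.86) and in the average (-1.32), Il11 in the average (-0.56) and Csf3 at 8 h (1.28).

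Of the 7 genes, 4 rose and 1 fell from 2 to 4 h in vehicle, where 40.2% of all genes passed, 14.6% rising and 25.6% falling. Those that rose were 36.4% of the genes called in that step, or 50.3% with each array centred on its median, while the median step of all genes went from -0.13 to 0.02; Il6, Il11, Lif and Csf1 rose in both. With aldosterone 5 rose and 0 fell (38.6% of all genes, 17.3% and 21.3%). From 4 to 8 h 1 rose, Il11, and 1 fell, Csf1, in each arm, beside 37.7% of all genes in vehicle (20.7% and 17.0%) and 37.5% with aldosterone (21.0% and 16.6%). The Csf1 fall is that of the probe set that stood for it, and another, 1425155_x_at, rose in vehicle. Per gene, the difference between the arms in these steps is the change of the hormone effect with time, and 0 of 7 passed its F test (2 at an unadjusted p under 0.05, Csf3 and Tnf), where 0.155% of all genes did. The vehicle and aldosterone steps share no sample, but the 2 to 4 h and 4 to 8 h steps of an arm share its 4 h samples.

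**Figure D4:**
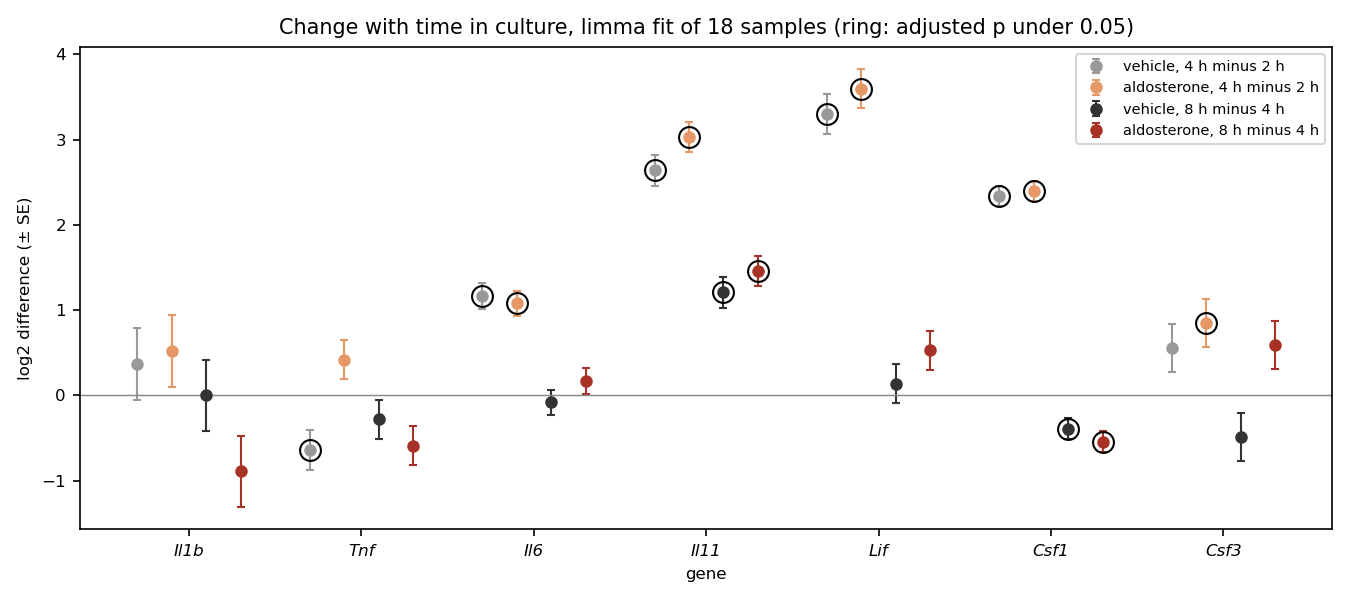
Change with hours in culture in log2 units (vertical axis, ± SE of the fit to 18 samples) for 7 genes (horizontal axis), from 2 to 4 h and from 4 to 8 h in vehicle and with aldosterone, with a ring where the adjusted p was under 0.05. Lif (3.30 and 3.60) and Il11 (2.64 and 3.03) have the highest early steps, and Il1b has no ringed step.

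Because Il6, Il11, Lif and Csf1 rose together, the 250 bases before their starts are printed, with Il1b, which fell with aldosterone, beside them. They are from RefSeq's promoter table for the build GRCm38.p6, 5' to 3' on the gene's strand, and capitals mark matches on either strand to NF-kB (GGG followed, after 2 free bases, by TTTCC), AP-1 (TGANTCA), C/EBP (TTGNGNAA) or a steroid receptor hexamer (AGAACA).
Il6, chr5:30012864-30013113, plus strand: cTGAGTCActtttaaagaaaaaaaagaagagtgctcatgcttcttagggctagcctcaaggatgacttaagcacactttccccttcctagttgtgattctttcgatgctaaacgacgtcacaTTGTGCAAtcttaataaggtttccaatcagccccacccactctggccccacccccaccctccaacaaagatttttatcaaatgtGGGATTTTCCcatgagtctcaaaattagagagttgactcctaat
Il11, chr7:4778142-4778391, minus strand: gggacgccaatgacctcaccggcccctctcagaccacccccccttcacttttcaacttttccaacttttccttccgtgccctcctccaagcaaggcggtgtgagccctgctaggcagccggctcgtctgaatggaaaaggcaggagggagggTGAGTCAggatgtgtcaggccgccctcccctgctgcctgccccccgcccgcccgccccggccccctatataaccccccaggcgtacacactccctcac
Lif, chr11:4257318-4257567, plus strand: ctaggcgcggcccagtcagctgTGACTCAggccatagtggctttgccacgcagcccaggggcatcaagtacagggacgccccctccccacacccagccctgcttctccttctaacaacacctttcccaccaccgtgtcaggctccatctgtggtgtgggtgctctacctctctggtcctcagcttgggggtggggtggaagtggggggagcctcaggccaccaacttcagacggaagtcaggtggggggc
Csf1, chr3:107760470-107760719, minus strand: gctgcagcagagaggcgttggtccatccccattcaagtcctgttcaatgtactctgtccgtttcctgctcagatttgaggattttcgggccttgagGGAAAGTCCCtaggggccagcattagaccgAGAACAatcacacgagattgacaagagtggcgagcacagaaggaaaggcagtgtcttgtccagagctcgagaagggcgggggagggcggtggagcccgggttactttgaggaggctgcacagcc
Il1b, chr2:129371140-129371389, minus strand: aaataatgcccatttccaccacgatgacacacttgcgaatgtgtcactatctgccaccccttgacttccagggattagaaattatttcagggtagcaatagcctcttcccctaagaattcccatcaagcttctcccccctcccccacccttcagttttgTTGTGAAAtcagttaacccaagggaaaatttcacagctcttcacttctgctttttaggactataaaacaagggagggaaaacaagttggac

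In these windows AP-1 letters stood in Il6, at 249 bases before the start, in Lif at 228 and in the Il11 start shown at 98. A second, upstream Il11 start held none of the motifs. Il1rn, which did not pass the filter, had AP-1 letters at 141 bases before 1 of its 3 starts and NF-kB letters at 51 before another. Its C/EBP letters, 81 and 161 bases before 2 of the starts, are the same site in overlapping windows. Tnf had C/EBP letters at 41. The motifs were thus not limited to the genes that rose: of the 7 genes with a window, 3 held NF-kB, 4 AP-1 and 4 C/EBP letters. By window, the unit of the shares over all promoters below, the counts were 3, 4 and 5 of 10. The C/EBP count by window includes the shared Il1rn site in both of its windows. NF-kB letters stood 44 bases before the Il6 start and 154 before that of Csf1, and C/EBP letters 128 bases before the Il6 start and 91 before that of Il1b. Csf1 had the steroid receptor hexamer, at 124, and none of the 10 windows found for 7 of the 8 genes held the full palindromic steroid receptor element. Of all 32851 windows of this length in the table, 1.41% held the NF-kB, 6.75% the AP-1, 11.7% the C/EBP, 16.1% the hexamer and 0.387% the full-element letters. A match is a description of letters, not of binding.

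Receptors and other genes of the pathway were read from lists. Of 12 receptor genes for these ligands 9 were tested, and with aldosterone 0 passed in limma's test at 2, 4 or 8 h or in the average. An unadjusted p under 0.05 was found for 1 of 9 at 2 h, Lifr, and for 0 at the later times and in the average, where their median was -0.07. In the average Osmr, the oncostatin M receptor, was the closest at -0.20 ± 0.10 (adjusted p = 0.607). In vehicle from 2 to 4 h, 4 rose and 2 fell, where 14.6% and 25.6% of all genes did. Il1r1, the signalling interleukin-1 receptor, rose 2.50-fold (adjusted p = 2.29e-05), Tnfrsf1b, a tumour necrosis factor receptor, 3.42-fold (adjusted p = 4.62e-05) and Osmr 1.88-fold (adjusted p = 0.000482), while Lifr fell to 0.313 of its 2 h level (adjusted p = 9.23e-06). Csf1r fell by 1.10 ± 0.26 in that step and by 1.81 ± 0.26 from 4 to 8 h in vehicle (adjusted p = 0.00306 and 4.46e-05). Il6st, the shared signalling chain, moved by -0.09 ± 0.14 from 2 to 4 h (adjusted p = 0.64) and rose by 0.48 ± 0.14 from 4 to 8 h (adjusted p = 0.0105).

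Of all genes 25.6% fell from 2 to 4 h in vehicle and 17.0% from 4 to 8 h. Of the 8 macrophage markers, which include Csf1r, 4 fell from 2 to 4 h in vehicle, C1qa, Csf1r, Lyz2 and Mrc1. The same 4 fell from 4 to 8 h. None of the other 4 passed in either step: from 2 to 4 h Adgre1 was at -0.41 ± 0.24, Cd68 at -0.50 ± 0.33, Cd14 at 0.47 ± 0.22 and Fcgr3 at 0.63 ± 0.29 (adjusted p = 0.187, 0.251, 0.103 and 0.0897). The summed macrophage signal ran from 1551 to 2997 in vehicle at 2 h, from 1110 to 1459 at 4 h and from 692 to 1072 at 8 h. Without Cd14 it ran from 1235 to 2447, 697 to 838 and 252 to 357. Over the same hours Il1b in vehicle moved by 0.37 ± 0.42 and 0.00 ± 0.42, neither past the threshold (adjusted p = 0.518 and 0.996).

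Among 15 related ligands 4 were tested. In vehicle from 2 to 4 h Csf2 rose from values under 4 (by 3.6 on the log2 scale, adjusted p = 6.02e-07). Il33, which encodes an alarmin stored in the nucleus, rose 4.13-fold in that step (adjusted p = 2.46e-05). None of the 4 passed in the hormone average, with 1 at an unadjusted p under 0.05: Clcf1, a cytokine of the interleukin-6 family, at -0.32 ± 0.14 (adjusted p = 0.495). Of 12 JAK-STAT genes 10 were tested. In vehicle from 2 to 4 h 1 of them rose and 4 fell, beside 14.6% and 25.6% of all genes. Socs3, the feedback inhibitor of Il6st signalling, fell by 0.51 ± 0.13 (adjusted p = 0.00527) while Il6, Il11 and Lif rose, and by 1.43 ± 0.13 from 4 to 8 h (adjusted p = 4.17e-07). Stat3, the transcription factor of that pathway, rose by 0.54 ± 0.19 from 2 to 4 h (adjusted p = 0.0347). In the hormone average 0 of 10 passed and 2 had an unadjusted p under 0.05, and Pim1, a kinase gene induced by STAT proteins, was at -0.34 ± 0.08 (adjusted p = 0.0515).

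Of 10 genes of cytokine mRNA decay 7 were tested. Zfp36, which encodes a protein that binds AU-rich cytokine transcripts such as that of Tnf and speeds their decay, fell by 1.67 ± 0.16 from 2 to 4 h in vehicle and fell by 1.27 ± 0.16 from 4 to 8 h (adjusted p = 7.95e-07 and 1.33e-05). Its hormone difference was -0.58 ± 0.16 at 2 h (adjusted p = 0.221) and 0.17 ± 0.16 at 8 h (adjusted p = 1). In the hormone average 0 of 7 passed and 2 had an unadjusted p under 0.05. Zfp36l2, a relative of Zfp36, was at 0.28 ± 0.07 (adjusted p = 0.0763). At 8 h 0 of 7 passed and 3 had an unadjusted p under 0.05. Among them was Zc3h12a, which encodes an RNase that degrades cytokine transcripts, at 1.13 ± 0.28 (adjusted p = 0.0778). The vehicle samples of Zc3h12a at 8 h were all under 4, from 3.35 to 3.40. Among 10 genes of processing and release 6 were tested, 0 passed in the hormone average and 0 had an unadjusted p under 0.05. Adam17 fell by 0.95 ± 0.17 from 2 to 4 h in vehicle and rose by 0.92 ± 0.17 from 4 to 8 h (adjusted p = 0.000441 and 0.00053).

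Likeness of pattern was measured as Pearson's r over the 18 samples, across times and treatments. How much of a value near 1 follows the hours in culture was not tested. Il6 was most like Lif (0.984), the chemokine gene Ccl2 (0.978) and Esf1 (0.977). Il11 was most like Fst, which encodes the activin antagonist follistatin (0.986), Trib3 (0.982) and Odc1, the first enzyme of polyamine synthesis (0.981). Lif was most like Cd44, the hyaluronan receptor, and Mak16, both at 0.984, and Csf1 like Gnl3 (0.98), Ddx21 (0.974) and Rps25 (0.972). For the dimmer genes the leading values were lower: Il1b with Camk2g at 0.675, Bcl6b at 0.671 and Fzd7 at 0.639, Tnf with Plcl2 at 0.855, Pla2g2c at 0.84 and Tff1 at 0.831, and Csf3 with St3gal1 at 0.797, Plxna2 at 0.787 and Fbxo42 at 0.786.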

How the data were processed

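Expression in the 18 samples is given as deposited log2 values per probe set, summarised by the authors with GCRMA (from the submitters' processing notes); its version and settings are not stated in these sources, and scanner files were not analysed here. Of 22690 probe sets, 64 controls were left out; 20380 of the others had 1 gene symbol, 691 several and 1619 none. After the filter, 11236 remained for 7092 genes. All 6 group means were estimated together in limma 3.58.1 (R 4.3.3), letting the prior spread follow intensity (12 residual and 17.2 total degrees of freedom), and an adjusted p under 0.05 was called. The script was tested on simulated data. Replicates are separate pools, per the labels, and their number limits precision. Where all samples of a group were at or under 4, a fold is that of the other group's mean over 4. Named are the 8 genes' probe sets, the 3 genes most like each, and per pathway list up to 4 genes of smallest p in the hormone average and in vehicle from 2 to 4 h; Csf1r, Il6st and the marker and hormone-check genes were named after their values were seen. The 8 genes and all lists were chosen with earlier results of these data known.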

Additional observations from a re-analysis of the deposited data

How the results depend on the processing

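The average falls of Il1b and Il11 were called in every setting that tested them. No called difference changed sign in the probe sets that stood for the 7 genes. Another Csf1 probe set, 1425155_x_at, was called higher from 4 to 8 h in vehicle (0.60), where 1460220_a_at was called lower (-0.39). Deviations from group means of same-numbered vehicle and aldosterone samples correlated between -0.186 and 0.282 (median 0.000989), over 0.1 in 2 of 9 pairs. For samples of unlike number the median was -0.0394. With 3 samples a group these correlations cannot decide whether a number marks a shared batch, which the labels do not say. With the replicate number as a block the genes called at 8 h were 67 and, of the 7, 1 was called at 8 h (Il1b, where the fit without it called 2); at 2 h 5 genes, at 4 h 18 and in the average 76 were called. Of the 7, the count at 8 h was 0 with no filter, 1 with a filter at 6 and 1 with values under 4 set to 4. Il1b and Tnf did not pass the filter at 6 and were not tested there. Csf3, the gene called there, passed that filter only through aldosterone samples, so the setting adds no support to its call. At 2 h the count was 1 with array weights and 1 with values under 4 set to 4. From 4 to 8 h with aldosterone it was 5 with array weights against 2. Over all genes, the 5 calls at 2 h became 17 with no filter, 2 with a filter at 6, 8 with every probe set on its own, 10 with median centring, 8 with quantile normalization again, 54 with array weights and 15 with values under 4 set to 4. The 17 at 4 h became 11 without an intensity trend, 9 with no filter and 42 with array weights. The 71 at 8 h became 114 with every probe set on its own and 222 with array weights, the 78 in the average 128 and 260, and the 11 differing between times 17 and 29. The causes were not tested. Leaving out 1 sample at a time gave 1 to 29, 5 to 32, 33 to 111 and 53 to 146 genes at 2, 4 and 8 h and in the average, 9 to 15 between times, 2227 to 2907 and 2159 to 3363 in the vehicle steps and 2095 to 3413 and 2089 to 3393 in the aldosterone steps. For the 7 genes it gave 0 to 2, 0 to 0, 0 to 2 and 2 to 3, then 0 to 0 between times, 4 to 5 and 1 to 2 in vehicle and 4 to 5 and 2 to 4 with aldosterone. Values near 4 carry little signal over background, which limits Il1b, Tnf, Csf3 and Il1rn.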
